A study of Mus musculus with 6 samples.

Results

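This report describes 8 genes that make, package, take up or break down the inhibitory transmitter GABA (gamma-aminobutyric acid), set the chloride gradient that GABA receptors use, or anchor those receptors. They are *Gad1*, *Gad2*, *Slc32a1*, *Slc6a11*, *Abat*, *Slc12a5*, *Slc12a2* and *Gphn*, chosen by symbol among the 24453 gene rows of the deposited table. All 8 were found, each in 1 row. All 8 also passed the filter for testing, a mean of 1 FPKM or more over the libraries, as did 12863 genes in all. FPKM divides the fragments of a gene by its exon length and by the size of the library, so levels can be compared between genes. Messenger RNA was sequenced from visual cortex taken on postnatal day 14 from male mice of the strain C57BL/6J, with 3 libraries from mice labelled Chrdl1 KO and 3 from WT mice. Chordin-like 1, the product of *Chrdl1*, is released by astrocytes and binds bone morphogenetic proteins. The sources used here do not give how the knockout allele was made or in which cells it acts. All animals of both groups were perfused with paraformaldehyde before dissection. Whether every library came from its own animal is not stated, so the p-values rest on library-to-library spread, which may be technical.

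GABA is made from glutamate by 2 glutamate decarboxylases, GAD67 (from *Gad1*), found throughout inhibitory neurons, and GAD65 (from *Gad2*), concentrated at nerve terminals. The vesicular transporter VGAT (from *Slc32a1*) loads it into synaptic vesicles, the transporter GAT-3 (from *Slc6a11*), mainly astrocytic in cortex, takes it back up, and GABA transaminase (from *Abat*) breaks it down. Whether GABA inhibits a neuron depends on its intracellular chloride, which KCC2 (from *Slc12a5*) exports and NKCC1 (from *Slc12a2*) imports. In the maturing rodent cortex KCC2 rises in neurons after birth, and GABA shifts from depolarizing to hyperpolarizing. Gephyrin (from *Gphn*) is the scaffold that holds GABA-A and glycine receptors at inhibitory synapses.

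Where the genes lie matters for what the values can hold. In mm10 coordinates of the deposited table, *Gad1* (NM_008077) spans 70562129 to 70602014 on chromosome 2, with 3249 bp of exon. *Gad2* (NM_008078) spans 22622327 to 22693877, *Slc32a1* (NM_009508) 158610758 to 158615747 and *Slc12a5* (NM_020333) 164967988 to 164999731 on the same chromosome. *Slc6a11* (NM_172890) spans 114131241 to 114249886 on chromosome 6, *Abat* (NM_001170978) 8513429 to 8621567 on chromosome 16 and *Gphn* (NM_172952) 78226655 to 78684769 on chromosome 12. *Slc12a2* is NM_009194. All 8 are protein-coding genes on the plus strand, and each value covers the exons of 1 transcript model. The antisense gene *Gad1os* overlaps the start of *Gad1*, and the counting command names no strand option, so reads of the pair cannot be told apart with certainty. *Gad1os* itself held 3 to 10 reads per library, against 5527 to 9882 for *Gad1*.

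*Slc12a5* has 2 starts in RefSeq, at 164960846 and 164967988, and the deposited row begins at the downstream one. The table therefore cannot say which start the measured transcripts used. Parts of the 250 bases upstream of both starts, and of the *Gad1* and *Gad2* starts, are printed because these genes carry the comparisons below. They are from RefSeq (GRCm38.p6, the mm10 assembly), 5′ to 3′ on the plus strand, and stop before any exon of the GENCODE M21 annotation. Capitals mark matches on either strand to the TATA box TATAAA, the GC box GGGCGG, the E-box CACGTG, the homeodomain core TAATTA or the EGR site GCGNGGGCG.
Gad1 upstream, chr2:70561879-70562041: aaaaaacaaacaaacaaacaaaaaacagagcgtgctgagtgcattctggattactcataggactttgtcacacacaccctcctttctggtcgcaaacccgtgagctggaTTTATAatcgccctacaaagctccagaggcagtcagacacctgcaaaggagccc
Gad2 upstream, chr2:22622077-22622204: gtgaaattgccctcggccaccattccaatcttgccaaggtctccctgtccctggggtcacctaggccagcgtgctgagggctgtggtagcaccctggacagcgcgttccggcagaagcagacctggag
Slc12a5 upstream start, chr2:164960596-164960801: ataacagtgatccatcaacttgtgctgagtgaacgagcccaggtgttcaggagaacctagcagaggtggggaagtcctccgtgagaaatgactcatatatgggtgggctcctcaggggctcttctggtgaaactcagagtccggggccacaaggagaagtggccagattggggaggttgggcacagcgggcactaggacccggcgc
Slc12a5 downstream start, chr2:164967738-164967982: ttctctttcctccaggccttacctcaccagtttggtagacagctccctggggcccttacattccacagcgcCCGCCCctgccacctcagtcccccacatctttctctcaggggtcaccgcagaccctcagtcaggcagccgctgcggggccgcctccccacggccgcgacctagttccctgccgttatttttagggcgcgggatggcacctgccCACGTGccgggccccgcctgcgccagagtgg
The *Gad1* stretch (163 bases) held 1 TATA box match, in the reverse orientation. These letters occur in 12.4% of 32851 RefSeq promoter windows taken as the 250 bases before a start. The stretch at the downstream *Slc12a5* start (245 bases) held 1 GC box match (32.7% of windows) and 1 E-box match (6.02%). The stretch at the upstream *Slc12a5* start (206 bases) and that of *Gad2* (128 bases) held none of the 5, of which the homeodomain core occurs in 4.84% of windows and the EGR site in 4.7%. The stretch at the downstream *Slc12a5* start held 16 CpG pairs and 66.5% G and C, against 6 pairs and 57.3% at the upstream start. All 4 printed stretches are shorter than those windows, because the bases nearest each start are left out. The *Gad2* stretch ends at 22622204 and its start is at 22622327, and the *Gad1* stretch ends at 70562041 with its start at 70562129. Sites in the missing bases were not searched, and a match in a stretch is a description of the letters.

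Libraries are numbered by the middle number of their titles, which goes 1 to 1 with the code at the start of the title. Estimated depth, recovered from the FPKM steps, was 27.5 to 38.2 megareads in WT and 22.7 to 31.9 in KO. *Chrdl1* was at 3.65, 3.57 and 3.09 FPKM in WT libraries 1, 2 and 3 and at 0.172, 0.19 and 0.12 in KO libraries 1, 2 and 3, which goes with the labels. Libraries with the same number deviated together from their group means (r of 0.43, 0.71 and 0.67 over the tested genes), so differences are also given within each number. Summed markers of excitatory cortical neurons (*Nrgn*, *Slc17a7* and 8 others) were at 2340 to 2720 FPKM in all 6 libraries. Interneuron markers were detected too, all 14 above the filter. Some libraries stood apart in markers of neighbouring tissue. Summed striatal neuron markers were at 286 to 334 FPKM in WT and at 148, 327 and 149 in KO libraries 1, 2 and 3. The choroid plexus gene *Ttr* was at 150 FPKM in WT library 1 and 310 in KO library 3, against 2.88 to 5.46 in the other 4. In bulk tissue, fewer cells of a type and less RNA per cell cannot be told apart.

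None of the 8 genes differed between genotypes by the test used, and their levels at this age were moderate to high. Averaged over the 6 libraries, *Slc12a5* was highest at 83.7 FPKM, followed by *Gad1* at 77.6, *Abat* at 77, *Slc6a11* at 48.2, *Gad2* at 36.1, *Slc32a1* at 33.1, *Gphn* at 29.9 and *Slc12a2* at 9.57. The top 3 were not separated from each other: *Slc12a5* exceeded *Gad1* in 4 of 6 libraries, *Gad1* exceeded *Abat* in 2 of 6, and the ranges of neighbours overlapped. Below them each gene exceeded the next in 6 of 6 libraries, although the ranges of *Slc6a11* and *Gad2*, *Gad2* and *Slc32a1*, and *Slc32a1* and *Gphn* overlapped across libraries. *Slc12a2*, the chloride importer gene, lay apart from all of them, at 8.74 to 10.9 FPKM.

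**Figure D1:**
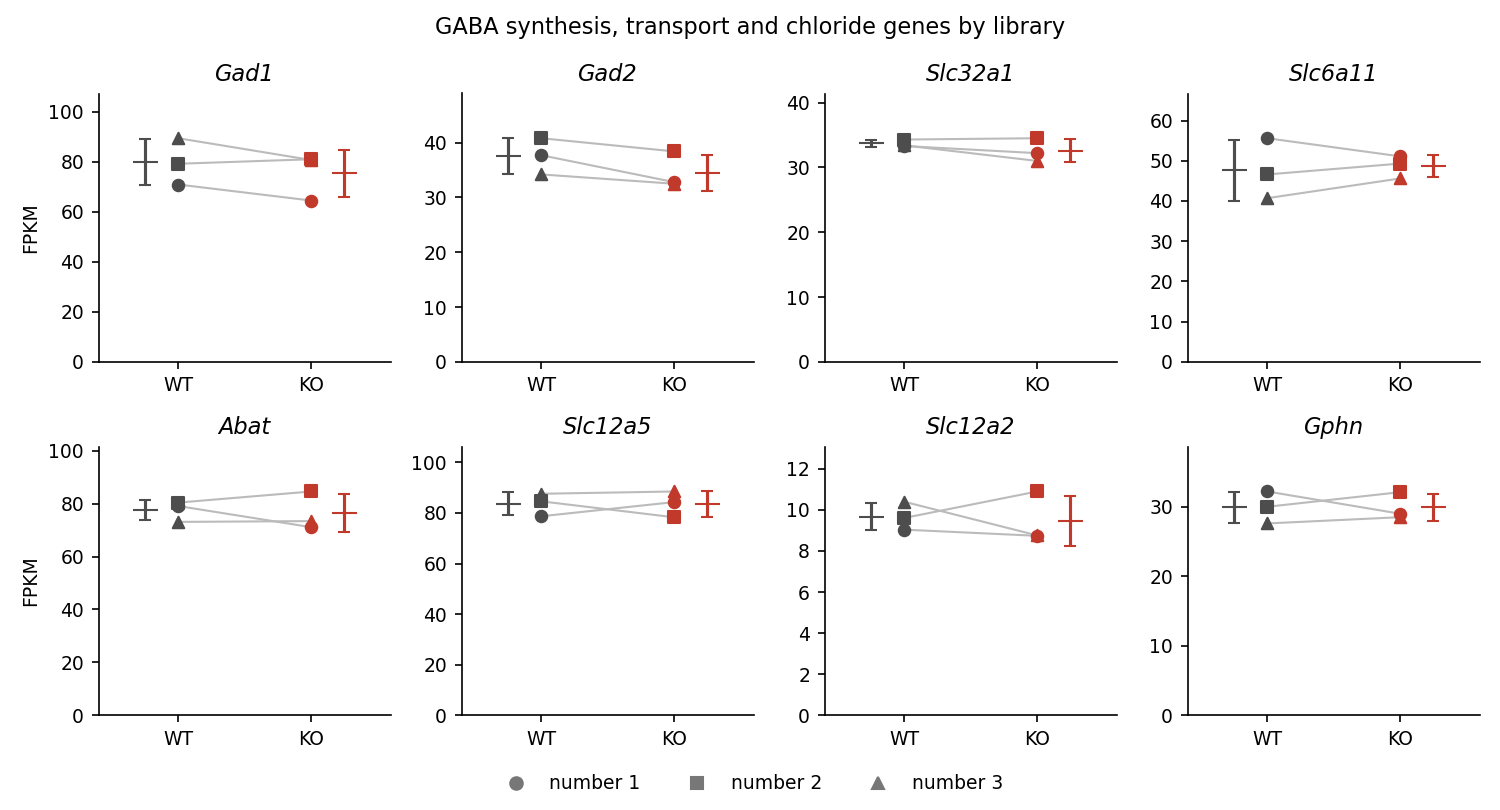
FPKM of each of the 8 genes in every library, with WT in grey and KO in red. Symbols give the title number, grey lines join libraries of the same number, and bars beside the points are mean ± SD (n = 3 per genotype). The WT and KO points overlap in all 8 panels.

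*Gad1*, the gene for GAD67, was at 70.9, 79.2 and 89.4 FPKM in WT libraries 1, 2 and 3 and at 64.5, 81 and 80.7 in KO libraries 1, 2 and 3. Library 1 was the lowest in both genotypes and the groups overlapped. WT averaged 79.8 ± 9.26 FPKM and KO 75.4 ± 9.45 (SD, n = 3), a log2 fold change of -0.08 with a 95% interval of -0.36 to 0.20. All log2 fold changes here are KO minus WT of log2(FPKM + 1), from limma fitted over the 12863 genes. The adjusted p by limma was 1. The SD within each genotype was larger than the difference between the means. With the title number as a block in the fit, the interval narrowed to -0.19 to 0.03. Within numbers 1, 2 and 3, the KO library differed from the WT library by -0.13, 0.03 and -0.15.

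*Gad2*, the gene for GAD65, was at 37.7, 40.8 and 34.2 FPKM in WT libraries 1, 2 and 3 and at 32.8, 38.4 and 32.5 in KO libraries. Number 2 was the highest in both genotypes, and the groups overlapped. Of the 8 genes, *Gad2* had the largest relative difference, with means of 37.6 ± 3.32 and 34.5 ± 3.3 FPKM (SD, n = 3). Its log2 fold change was -0.12 (interval -0.34 to 0.11; limma unadjusted p = 0.257, adjusted p = 1). It was the only member lower in KO in 3 of 3 numbers, by -0.20, -0.09 and -0.07, a pattern that 9.59% of all tested genes showed. With the title number as a replicate block the unadjusted p was 0.0323 and the adjusted p by limma 0.999, and 3.91% of all genes had an unadjusted p under 0.05 in that fit.

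The balance of the decarboxylase genes followed the title number more than the genotype. The *Gad1* to *Gad2* ratio was 1.88, 1.94 and 2.61 in WT libraries 1, 2 and 3 and 1.97, 2.11 and 2.48 in KO libraries. The libraries numbered 3 had the highest ratio in both genotypes. The log2 difference between genotypes was 0.04 (exact 2-sided permutation test, p = 0.8, where 0.1 is the smallest value that 3 against 3 allow). This ratio was added after the values were seen.

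*Slc32a1*, which encodes the vesicular transporter, varied least in WT, at 33.3, 34.3 and 33.4 FPKM. KO libraries 1, 2 and 3 were at 32.2, 34.5 and 31. KO library 2 was the highest of all 6 libraries, and the other KO libraries were below every WT library. The means were 33.7 ± 0.541 and 32.6 ± 1.8 FPKM (SD, n = 3). Their log2 fold change was -0.05 (interval -0.21 to 0.11, limma adjusted p = 1). The SD was 1.6% of the mean in WT and 5.53% in KO. The counting error of this gene was at most 2.14%, so the WT spread was no larger than counting alone gives.

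*Slc6a11*, the gene for the astrocytic GABA transporter, varied more, at 55.6, 46.6 and 40.7 FPKM in WT libraries 1, 2 and 3 and 51.1, 49.3 and 45.6 in KO libraries. Library 1 was highest and library 3 lowest in both genotypes, and the KO values lay inside the WT range. The log2 fold change was 0.04 (interval -0.23 to 0.31, limma adjusted p = 1), with within-number differences of -0.12, 0.08 and 0.16. Summed markers of astrocytes (10 genes, among them *Slc1a2* and *Aldoc*) were at 839 to 885 FPKM in WT and 805 to 926 in KO. The list had 8 members higher and 2 lower in KO and none called.

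*Abat*, which encodes the enzyme that degrades GABA, was at 79.1, 80.4 and 73.1 FPKM in WT libraries 1, 2 and 3 and at 71.1, 84.6 and 73.4 in KO libraries. KO library 2 was the highest and KO library 1 the lowest of the 6. The log2 fold change was -0.02 (interval -0.23 to 0.18, limma adjusted p = 1).

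The chloride transporter genes had close means in the 2 genotypes, but their ratio was spread more widely among the KO libraries. *Slc12a5*, the gene for the exporter KCC2, was at 78.7, 84.6 and 87.6 FPKM in WT libraries 1, 2 and 3 and at 84.3, 78.3 and 88.5 in KO libraries. The means were 83.7 ± 4.57 and 83.7 ± 5.13 FPKM (SD, n = 3). The log2 fold change was 0.00 (95% interval -0.18 to 0.18, limma adjusted p = 1). *Slc12a2*, the gene for the importer NKCC1, was at 9.04, 9.61 and 10.4 FPKM in WT libraries and at 8.74, 10.9 and 8.76 in KO libraries. KO library 2 was again the highest of the 6, while KO libraries 1 and 3 were the lowest. The means were 9.67 ± 0.657 and 9.46 ± 1.24 FPKM (SD, n = 3). The log2 fold change was -0.03 (95% interval -0.27 to 0.20, limma adjusted p = 1).

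The *Slc12a5* to *Slc12a2* ratio, taken within each library and so independent of its total, was 8.7, 8.81 and 8.46 in WT libraries 1, 2 and 3. It was 9.65, 7.19 and 10.1 in KO libraries 1, 2 and 3, so 2 KO libraries lay above the WT range and 1 below it. The ratio averaged 8.66 ± 0.176 in WT and 8.98 ± 1.57 in KO (SD over 3 libraries each). The difference in log2 ratio was 0.04, with an exact 2-sided permutation p of 1. Within numbers 1, 2 and 3 it was 0.15, -0.29 and 0.25, that is 1.11-, 0.82- and 1.19-fold, and the exact sign-flip p over the numbers was 1, where 0.25 is the smallest possible. The direction of the mean difference rested on single libraries: it was -0.02 without KO library 1, -0.06 without KO library 3 and 0.19 without KO library 2.

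The ratio in each library was known closely. With 10631 to 18018 reads of *Slc12a5* and 1496 to 2287 of *Slc12a2*, the exact 95% binomial interval of the ratio was 6.82 to 7.58 in KO library 2, 9.15 to 10.2 in KO library 1 and 9.62 to 10.6 in KO library 3. In the WT libraries the intervals ran from 8.1 at the lowest to 9.27 at the highest and overlapped each other. The interval of KO library 2 did not meet that of any other library. That of KO library 3 lay above every WT interval, while that of KO library 1 overlapped that of WT library 2 (8.38 to 9.27). These intervals cover counting error only. Whether the wider spread in KO differs from that in WT was not tested, since each SD rests on 3 libraries.

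**Figure D2:**
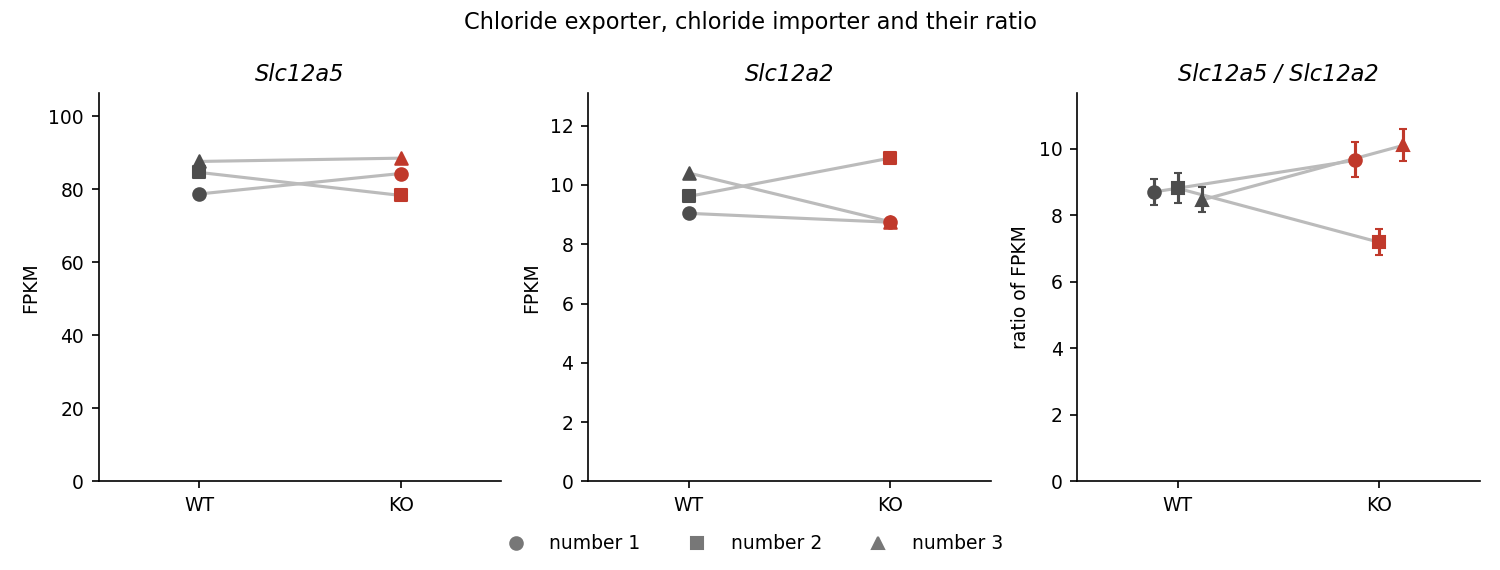
FPKM of *Slc12a5* and *Slc12a2* and the ratio of the values in each library, with WT in grey and KO in red, symbols for the title number and lines joining the same number. Error bars on the ratio are exact 95% intervals for counting error. The WT ratios lie within 8.46 to 8.81, and KO library 2 at 7.19 lies below them while the other KO libraries lie above.

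The choroid plexus also expresses *Slc12a2*. The libraries with high *Ttr*, WT library 1 and KO library 3, held 9.04 and 8.76 FPKM of *Slc12a2*, against 8.74 to 10.9 in the other 4. The part of this tissue in the *Slc12a2* values was not tested. The other 5 choroid plexus genes of the list averaged under 1 FPKM. Leaving out both libraries, an alternative added after seeing the data, gave a log2 difference of the ratio of -0.05.

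*Gphn*, the gene for gephyrin, was at 32.2, 30 and 27.6 FPKM in WT libraries 1, 2 and 3 and at 29, 32.1 and 28.5 in KO libraries. The groups covered nearly the same range. The means were 29.9 ± 2.28 and 29.9 ± 1.91 FPKM (SD, n = 3), and the 95% interval of the log2 fold change was -0.19 to 0.19 (limma adjusted p = 1).

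Of the 8 genes, 0 were called by limma at an adjusted p under 0.05, against 0.00777% of all tested genes (only *Chrdl1*, lower in KO). None had an unadjusted p under 0.05 in the main fit, where 0.63% of all genes did. With the replicate block in limma 1 did (*Gad2*), where 3.91% of all genes did. With voom on recovered reads 0 of the 8 were called as well. For 6 members the fold change was below 0, as for 46.2% of all tested genes, and for 2 above 0, as for 53.8%. The median was -0.03, against 0.01 over all tested genes. WT and KO values overlapped for all 8, where 2.95% of all genes had no overlap. The 95% intervals of the members reached from 0.78-fold to 1.24-fold at their widest, and from 0.86-fold to 1.13-fold with the replicate block. Counting error was small beside this: the member with the fewest reads, *Slc12a2*, had 1496 in its shallowest library, a counting error of 2.59%. The median SD within a genotype was 7.21% of the mean for the members in WT and 7.94% in KO, close to the 8.72% and 7.47% of the 8811 genes at 5 FPKM or more.

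**Figure D3:**
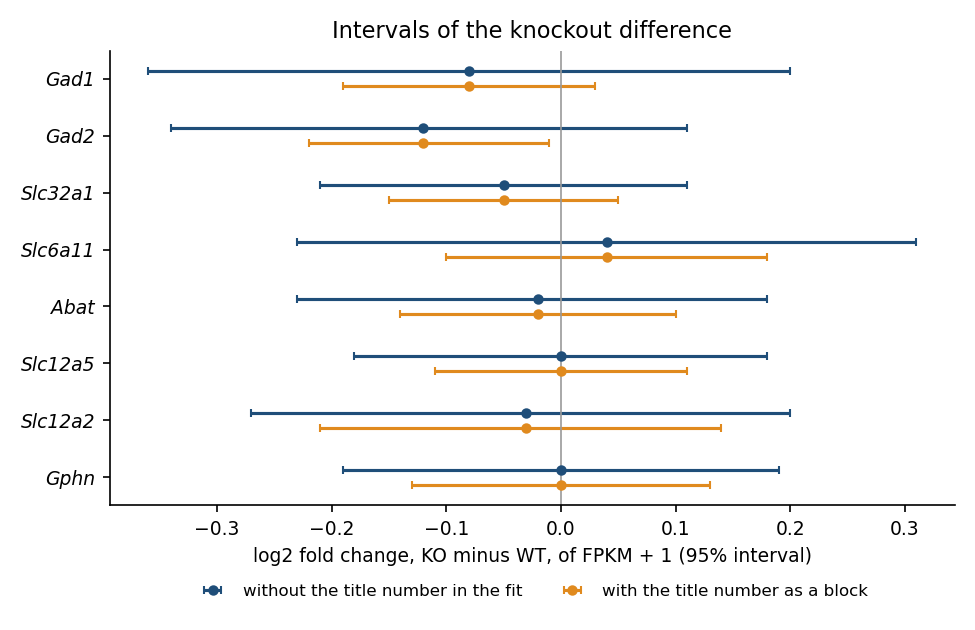
Log2 fold changes, KO minus WT, of the 8 genes with 95% intervals from limma, without (blue) and with (orange) the title number as a block. The intervals without the block include 0 for all 8 genes and reach at most -0.36 and 0.31, and with the block that of *Gad2* ends at -0.01.

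Markers of some other cell types differed between KO and WT in the same direction as some of these genes at each number. Across the WT libraries this did not hold for striatal markers. Their sums were 334, 310 and 286 FPKM in WT libraries 1, 2 and 3, where *Gad1* was at 70.9, 79.2 and 89.4. *Gad1*, *Slc32a1* and *Slc12a2* were lower in KO at numbers 1 and 3 and higher at number 2, a pattern that 17.4% of all genes showed. *Gad2* did not show it, at -0.20, -0.09 and -0.07. At number 2 the log2 differences of *Gad1* and *Slc32a1* were only 0.03 and 0.01. These are near counting error, which was up to 1.35% and 2.14% per library. Striatal neurons are GABAergic and express both decarboxylase genes and *Slc32a1*. The log2 ratio of their summed markers, KO over WT, was -1.17, 0.08 and -0.93 at numbers 1, 2 and 3. All 11 striatal markers were lower in KO (median -0.62) and none was called with all 6 libraries. *Penk*, the enkephalin precursor gene, was at 78.7, 77.2 and 74.4 FPKM in WT libraries and 27.4, 82.3 and 31.9 in KO libraries. *Ppp1r1b*, which encodes DARPP-32, was at 103, 91.7 and 81.1 and at 31.8, 101 and 35.9. Without KO library 2, limma called *Penk*, *Ppp1r1b* and a further striatal marker, *Scn4b*. Summed oligodendrocyte markers were also lower in KO at numbers 1 and 3 and higher at number 2. Unlike the striatal sums, they rose from WT library 1 to 3. They were at 1850, 2480 and 3110 FPKM in WT libraries 1, 2 and 3 and 1470, 2850 and 2220 in KO. All 10 of these, among them *Mbp*, were lower in KO (median -0.18), none called. The part of either cell type in the values of *Gad1*, *Slc32a1* or *Slc12a2* was not tested.

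Markers of cortical interneurons, with the 8 genes left out, were closer between genotypes. Their sum was at 625, 613 and 749 FPKM in WT libraries 1, 2 and 3 and at 622, 630 and 698 in KO libraries. Of 14 genes 5 were higher and 9 lower, the median was -0.05 and none was called. *Sst*, the somatostatin gene, measured 373 ± 37.3 and 374 ± 22.5 FPKM, and *Npy*, the neuropeptide Y gene, 150 ± 28.7 and 137 ± 11.9 (SD, n = 3). Library 3 had the highest sum in both genotypes. Of the meningeal fibroblast list (8 genes, among them *Igf2* and *Dcn*) 7 were higher in KO, with sums of 77.1 to 82.7 FPKM in WT and 83 to 106 in KO, and none was called. Endothelial sums were at 60.3 to 74.3 and 64.3 to 72.1 FPKM (*Cldn5* and *Ly6c1* highest), and oligodendrocyte precursor sums at 149 to 161 and 152 to 165 (*Olig1* and *Gpr17* highest), with none called.

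**Figure D4:**
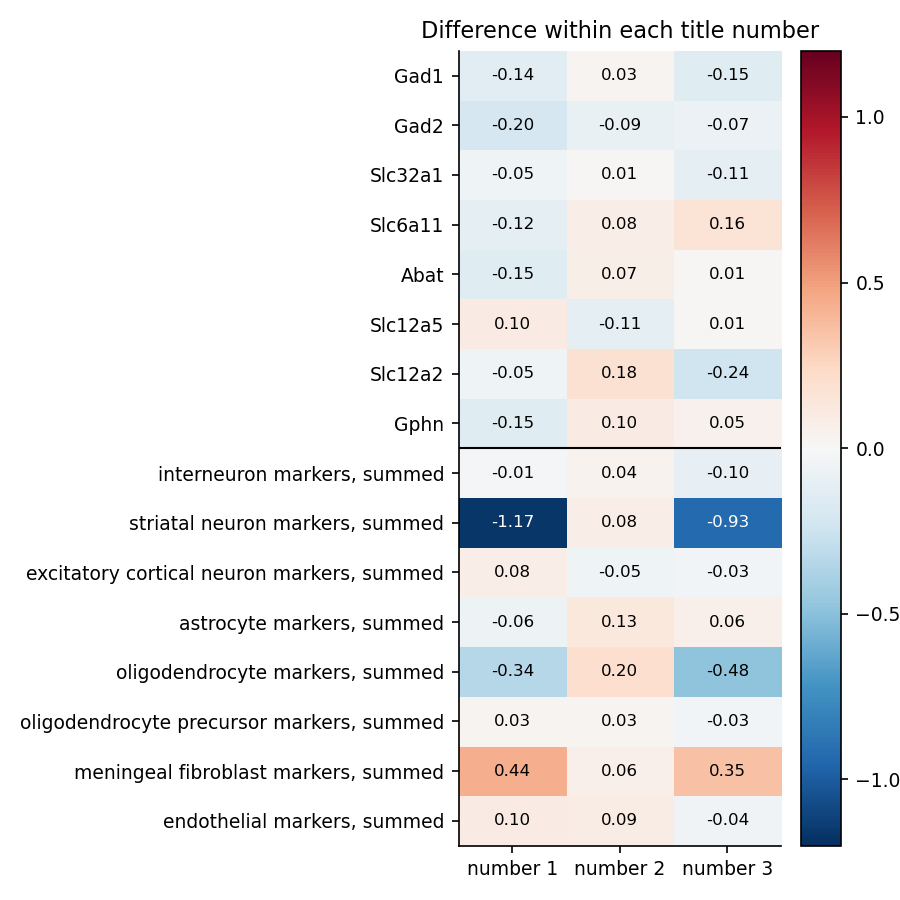
Log2 of KO FPKM over WT FPKM at each title number, without a pseudocount, for the 8 genes (above the line) and for the summed markers of 8 cell types (below, choroid plexus left out), with red for higher and blue for lower in KO. The striatal row is at -1.17 and -0.93 at numbers 1 and 3 and at 0.08 at number 2, while the 8 genes lie between -0.24 and 0.18.

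The genes on which GABA acts, or which share these roles, did not pass the test either. Of 13 measured GABA-A receptor subunit genes, 0 were called by limma, with 3 higher and 10 lower in KO and a median log2 fold change of -0.04. *Gabrq* had the smallest unadjusted p of the list (0.121 by limma), with WT at 1.16 ± 0.291 FPKM and KO at 0.858 ± 0.0826 (SD, n = 3). All 6 genes for GABA-B receptors and their KCTD partners were measured, with 5 higher, 1 lower, a median of 0.03 and 0 called. *Gabbr1* measured 148 ± 1.01 and 151 ± 2.71 FPKM and *Gabbr2* 63.3 ± 12.8 and 66 ± 6.7. The values of *Gabbr1* did not overlap between genotypes, as for 2.95% of all tested genes, with a log2 fold change of 0.03.

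Among 11 other measured genes for GABA uptake, breakdown and precursor supply, 8 were higher, 3 lower and 0 called, with a median of 0.01. *Glul*, the glutamine synthetase gene of astrocytes, stood at 306 ± 30.1 FPKM (WT) and 316 ± 43 (KO). *Slc6a13*, which encodes the transporter GAT-2 of meninges and vessels, had the smallest unadjusted p of this list (0.491 by limma), at 4.44 ± 0.893 and 4.73 ± 0.251 FPKM.

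Among 18 other measured genes for chloride transporters and their kinases, 14 were higher, 4 lower and 0 called, with a median of 0.02. *Slc4a10*, a sodium-driven chloride bicarbonate exchanger gene, measured 43.1 ± 3.25 and 44.1 ± 1.88 FPKM, and *Car2*, a carbonic anhydrase gene, 42 ± 3.74 and 42.7 ± 4.58. *Slc12a7*, which encodes the potassium chloride cotransporter KCC4, had the smallest unadjusted p of the list (0.0755 by limma). It was at 1, 1.01 and 0.927 FPKM in WT libraries and 1.34, 1.05 and 1.47 in KO libraries. These did not overlap, as for 2.95% of all tested genes. *Stk39* and *Oxsr1*, the kinases that act on both cotransporters and were named here after their values were seen, had log2 fold changes of 0.01 each.

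Among 16 measured genes of the inhibitory postsynapse and of glycine receptors, 9 were higher, 7 lower and 0 called, with a median of 0.01. *Gabarapl1* and *Gabarap*, which encode GABA-A receptor associated proteins of the ATG8 family, measured 312 ± 34.2 and 314 ± 29.1 FPKM and 119 ± 14.4 and 117 ± 10.5. *Lhfpl4*, needed for clustering of GABA-A receptors with neuroligin 2, measured 36.1 ± 1.43 and 38.3 ± 3.54 (smallest unadjusted p of the list, 0.39 by limma). No gene of these 5 lists had an unadjusted p under 0.05 by limma. With the replicate block in limma 1 GABA-A subunit gene (*Gabrq*, 0.0389) and 1 chloride transporter gene (*Slc12a7*, 0.0488) did, each with an adjusted p of 0.999. Of all tested genes, 3.91% had an unadjusted p under 0.05 in that fit.

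**Figure D5:**
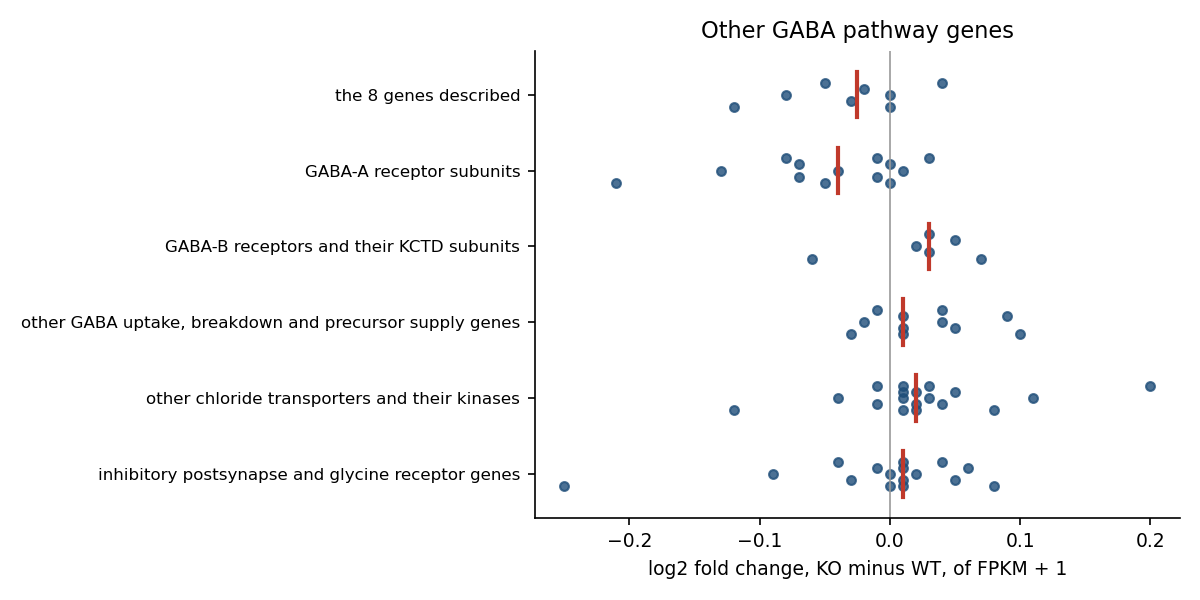
Log2 fold changes, KO minus WT, of every measured gene in the 8 described and in 5 other lists of the GABA pathway, 1 point per gene, with the list median as a red line. The medians lie between -0.04 and 0.03, and the points span -0.25 (*Glra3*, a glycine receptor subunit gene singled out after its value was seen) to 0.20 (*Slc12a7*).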

How the data were processed

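Per the labels' protocols, RNA was purified on silica columns from 3 WT and 3 KO visual cortices and made into libraries with a stranded mRNA kit. The authors deposited 1 table of FPKM values, made per the file headers with HOMER over the exons of each gene, condensed to 1 row, on mm10. STAR 2.4.0k, HOMER 4.8.3 and FastQC are named per the submitters' processing notes. The command names 12 libraries, and the 6 without a column are not analysed here. FPKM scales each library to its own total, so only relative levels can be compared.

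Read totals were estimated from the FPKM steps: 100.0% of 4675 to 6957 values under 200 reads per library were whole within 0.1 read. Totals for WT replicates 1, 2 and 3 were 38.2, 27.5 and 34.0 megareads and for KO 26.4, 22.7 and 31.9 megareads. Genotypes were compared 2-sided in limma 3.58.1 under R 4.3.3, with an intensity trend, on log2(FPKM + 1) of the 12863 genes averaging 1 FPKM or more, with Benjamini-Hochberg adjustment over all of them. It was tested on simulated data first. There the main fit called 0 of 50 genes changed 1.25-fold, 25 of 50 changed 1.5-fold and 46 of 50 changed 2-fold, with 0 false calls. The fit with the replicate block called 22, 47 and 50 of them, with 9 false calls. The simulation changed many genes at once, also 50 by 4-fold, of which 50 were called, and this eases the Benjamini-Hochberg cut-off. In the data the main fit called 1 gene, so the cut-off was stricter there and these shares overstate what could be found. A change of 1.25-fold or less would thus be missed by the main fit, and larger changes could be missed too. The ratio was compared by exact permutation. Other software was scipy 1.17.1, numpy 2.4.6, pandas 2.3.3 and matplotlib 3.10.9 under Python 3.11.15.

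The numbers pair the libraries, since same-numbered WT and KO libraries correlated at 0.43 to 0.71 in their deviations and others at -0.61 to -0.06, although no label gives the meaning of a number. The main fit has no block, and the blocked fit is an alternative. Variation shared within a number therefore stays in the error of the main fit. Its median standard error over the tested genes was 0.10, against 0.06 with the block. By limma 0.63% of genes had an unadjusted p under 0.05 in the main fit, against 3.91% with the block. No library was a duplicate (chi-square per degree of freedom of 2.8 or more). Alternatives were the block, each library left out, another pseudocount, no filter, quantile or median scaling, and voom on recovered reads. Added after seeing the data were fits without both libraries of a number, without the 2 libraries high in *Ttr*, and voom with the block. Named genes were the 8 members, *Chrdl1*, from each pathway list the 2 most abundant genes and the 1 with the smallest p, from each marker list the 2 most abundant, and the 3 genes most like *Gad1* and *Slc12a5* over the libraries, and some genes that this rule takes are not reported here. Of the pathway lists, 2 symbols (*Insyn1*, *Insyn2a*) matched no row. *Drd1* was listed under 2 symbols and counted once. Members and lists were chosen with earlier results of these data known. Promoter sequences matched 6 of the 8 members by symbol.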

Additional observations from a re-analysis of the deposited data

How the results depend on the processing

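Under 17 alternatives, 0 of the 8 genes were called, and the lowest adjusted p was 0.998 (all 8, voom with replicate block). The fits without both libraries numbered 1 or numbered 2, and without the 2 high in *Ttr*, called no gene at all, not even *Chrdl1*. The lack of member calls in those fits therefore carries little weight. Of 136 fold changes of members, 109 kept their sign and 27 did not. *Gad2* and *Slc32a1* stayed below 0 in all, with ranges of -0.19 to -0.06 and -0.09 to -0.01 when 1 library was left out. Without 1 library, the others ranged from -0.16 to 0.02 (*Gad1*), -0.06 to 0.16 (*Slc6a11*), -0.10 to 0.02 (*Abat*), -0.04 to 0.05 (*Slc12a5*), -0.13 to 0.02 (*Slc12a2*) and -0.06 to 0.05 (*Gphn*). Other changes of sign were within 0.08 of 0. Without both libraries numbered 1, *Abat*, *Slc12a5* and *Gphn* were at 0.04, -0.05 and 0.07. Without those numbered 3, *Slc6a11*, *Slc12a5* and *Slc12a2* were at -0.02, -0.01 and 0.06. Without the 2 libraries high in *Ttr*, *Abat*, *Slc12a5* and *Gphn* were at 0.02, -0.08 and 0.08, and *Gad1* and *Slc6a11*, with their sign kept, at -0.22 and 0.20. Median centring put *Slc12a5* at -0.00 and quantile normalization *Gphn* at 0.01.

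The log2 difference of the *Slc12a5* to *Slc12a2* ratio was 0.04 with the replicate block and -0.06 to 0.19 when 1 library was left out. It was -0.02, 0.20 and -0.07 without both libraries numbered 1, 2 or 3, and -0.05 without the 2 high in *Ttr*.

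Over all genes, limma called 1 gene, and 1 to 4 when 1 library was left out. Limma called 2 without WT replicate 2. Without KO replicate 2 it called 4, *Chrdl1* and the striatal markers *Penk*, *Ppp1r1b* and *Scn4b*. It called 2 at a pseudocount of 0.1, 6 without the filter, where rows of few reads enter, and 2 by voom with the replicate block. It called 0 without both libraries numbered 1, 0 without those numbered 2 and 0 without the 2 high in *Ttr*, where 29, 208 and 43 genes had an unadjusted p under 0.05. The cause of these moves was not tested. The replicate block left the count at 1 and changed no call named in the text. The counting error of the members was at most 2.59%. The 95% intervals reached 0.78-fold and 1.24-fold at their widest, and 0.86-fold and 1.13-fold with the replicate block.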

Other observations

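Among 6185 genes at 10 FPKM or more, those whose log2(FPKM + 1) over the 6 libraries was most like *Gad1* were *Lpcat4* (Pearson r = 0.995, Spearman rho = 0.829), *Ociad2* (r = 0.995, rho = 1) and *Opalin* (r = 0.994, rho = 1). *Opalin*, a gene of myelinating oligodendrocytes, was at 8.5, 11.7 and 18.4 FPKM in WT libraries 1, 2 and 3 and at 6.78, 13.7 and 13.5 in KO libraries. Without the 2 libraries farthest from the median of *Gad1* the r values were 0.977, 0.986 and 0.981. Those most like *Slc12a5* were *Slc30a3*, the gene for a vesicular zinc transporter of glutamatergic terminals (r = 0.982, rho = 0.943), *Fbxo31* (r = 0.981, rho = 0.943) and *Nptxr*, the neuronal pentraxin receptor gene (r = 0.965, rho = 0.943), with r values of 0.938, 0.915 and 0.981 without the 2 farthest libraries. *Slc30a3* was at 51.5, 58.3 and 60.9 FPKM in WT libraries and 55.7, 52 and 61.5 in KO libraries. These are descriptions over 6 libraries that share title numbers, picked as the highest of many, since 106 genes exceeded an r of 0.9 with *Gad1* and 48 with *Slc12a5*.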
